A study of Mus musculus with 10 samples.

Results

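The experiment described here followed oocyte maturation in Patl2-/- mice, by setting ovulated metaphase II (MII) oocytes against germinal vesicle (GV) oocytes of the same genotype. Its members were chosen from the sample titles alone, as the 3 Patl2-/- MII samples and the 3 Patl2-/- GV samples, which makes 6 of the 10 arrays of the study. The other 4 arrays, 2 of wild-type (WT) MII oocytes and 2 of WT GV oocytes, served for one comparison at the end and for the estimate of the spread.

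Patl2-/- females carried a LacZ cassette in Patl2 together with a deletion of exon 7. The allele came from the C57BL/6NTac tm1a line of the EUCOMM programme after a cross with EIIa-Cre mice, whose Cre recombinase acts in the early embryo, so every cell of the animal lacked the exon and not the oocyte alone. All 4 groups had received 5 UI of PMSG, a hormone that drives follicle growth. MII oocytes were taken 12 h after 5 UI of hCG, the ovulation signal, which followed PMSG by 48 h, whereas GV oocytes were taken 44 h after PMSG and kept in a medium with dibutyryl cAMP, which holds the meiotic arrest. Each sample pooled oocytes, 28 to 46 of them at MII and 20 to 32 at GV. Follicular cells had been stripped with hyaluronidase and pipetting. The paper reports that some ovulated Patl2-/- oocytes had not reached MII and were probably blocked at metaphase I. How MII was scored for these pools is not stated, and the part of such oocytes in the changes below was not tested. Replicates are titled as biological, but which females gave which sample is not stated, so the p-values below measure the spread between these pools.

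A mouse oocyte stores a large stock of maternal mRNA during growth and then stops transcription. When the germinal vesicle breaks down, resumption of meiosis is accompanied by polyadenylation and translation of some stored messages and by deadenylation and decay of many others. Patl2 encodes an oocyte protein related to the yeast decapping activator Pat1 and is thought to bind RNA. Cpeb1, Ybx2 (Msy2) and Ddx6 are other proteins that act on stored messages. Once transcription has stopped, levels therefore reflect storage and decay more than new synthesis. How many of the GV oocytes used here had reached that point is not stated.

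Each array received cDNA made from 250 pg of RNA, and its values are log2 signals after the robust multi-array average (RMA). Equal RNA mass was labelled from every sample, so every change given here is relative to the RNA labelled. A lower content of one message per oocyte and a smaller share of it within a changed RNA pool cannot be told apart. The paper reports less RNA per oocyte at MII than at GV. A small relative rise may therefore not be a rise per oocyte, and the median over all rises called below was 0.67 log2 units. Change per oocyte was not tested. A transcript cluster is a set of probes that the array design assigns to one transcribed locus, and 65956 of them were tested. Fold changes are MII over GV, and a cluster counts as changed where limma gave an adjusted p under 0.05 with Benjamini-Hochberg adjustment over all 65956 clusters.

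Within each Patl2-/- stage the arrays correlated at 0.989 or more, against 0.962 to 0.973 between stages. The MII arrays had fewer bright clusters, with 8787 to 8970 above a log2 level of 8, against 9430 to 9589 on the GV arrays. A level of 8 lies well above the negative control probes, whose 90th percentile was 6.25 to 6.46 at MII and 6.14 to 6.29 at GV. Hybridisation controls averaged 11.58 to 11.69 on the Patl2-/- MII arrays and 11.71 to 11.98 on the Patl2-/- GV arrays. Poly-A controls went the other way, with 5.21 to 5.87 on the Patl2-/- MII arrays and 4.56 to 5.12 on the Patl2-/- GV arrays. The part of these control differences in the results was not tested. The oocyte label held: the median level of 16 oocyte markers was 14.89 to 14.96 at MII and 15.18 to 15.36 at GV. Granulosa and cumulus cell markers were low, with medians over 29 genes of 4.97 to 5.17 at MII and 5.14 to 5.21 at GV. Of these 29, Ptgs2 was called higher and Fshr, Inhbb, Inhba and Npr2 were called lower. The mean levels of Ptgs2, Inhbb, Inhba and Npr2 did not reach the 90th percentile of the negative controls at either stage, and that of Fshr did not reach it at MII. Inha read 6.30, 8.95 and 8.65 in MII oocytes and 10.36, 10.51 and 10.83 in GV oocytes without passing the test (-2.60, SE 0.94, adjusted p = 0.139). Markers of theca, stroma, vessel and blood cells had medians of 4.42 to 4.58 at MII and 4.49 to 4.56 at GV, with Myh11 alone of 17 higher at MII (0.85). The part of residual follicular cells in the changes below was not tested.

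More clusters were lower than higher in MII than in GV Patl2-/- oocytes. A total of 4708 clusters fell (7.14% of those tested) and 2226 rose (3.37%). Among them, 2729 fell by at least 2-fold (4.14%) and 448 rose by at least 2-fold (0.679%). An unadjusted p under 0.05 was found for 15082 clusters (22.9%). The sizes were unequal as well. Falls of at least 4-fold were seen for 1234 clusters, of at least 8-fold for 658, of at least 16-fold for 249 and of at least 32-fold for 77. For rises the matching counts were 50, 10, 1 and 0. At levels of 8 or more, where 9204 clusters lay, 25.4% fell and 15.2% rose. The gene lists below were read from 1 cluster a gene. Over all 30176 genes read in that way 8.73% fell and 5.70% rose, and over the 6496 of them at level 8 or more, where many list members lay, 20.0% fell and 18.4% rose. A list whose shares lie near these last values shows nothing particular to its members. The balance of directions rested on the scaling. The deposited values gave 32.1% of calls as rises, and a further quantile normalization gave 6159 rises and 3575 falls, or 63.3% rises, while moving the median change of clusters at level 8 or more by over 0.1, to 0.34 instead of -0.03. Counts of rises were also reduced by over 1.5 times, to 1360 without MII replicate 1 and to 1429 without GV replicate 1. The 32 gene lists below gave 64 counts of rises and falls, and 26 of these moved by over 1.5 times without GV replicate 1, 22 without MII replicate 1 and 21 without MII replicate 2, against 18 or fewer without any other array. Small list counts are therefore given with their range over these fits and with the counts after the further quantile normalization.

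Patl2 itself was read first, as the check of the genotype. Its cluster, over a gene at chr2:122120108-122186189 in the RefSeq annotation of GRCm38.p6, gave log2 signals of 6.44, 6.10 and 6.59 in Patl2-/- MII oocytes and 7.71, 7.36 and 8.07 in Patl2-/- GV oocytes. In WT oocytes the same cluster gave 8.73 and 8.55 at MII and 11.70 and 10.92 at GV, so every Patl2-/- array lay below every WT array of its stage. Between stages the Patl2-/- signal changed by -1.34 (SE 0.25, adjusted p = 0.0108) and the WT signal by -2.67 (SE 0.30). The Patl2-/- call was lost under the ANOVA of the study's methods after adjustment (adjusted p = 0.0886), and the Patl2-/- MII arrays were near background, with the negative controls' 90th percentile at 6.25 to 6.46. Which of its probes lie in the deleted exon is not given in the sources used here. The paper read Patl2 exon by exon on these arrays. It reports the deleted exon as almost without signal in Patl2-/- oocytes, the first exons as close to WT and the others as reduced or missing.

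The 12 largest falls were taken from named genes with a mean level of at least 7 at GV. Their MII and GV arrays had to be non-overlapping, as for the rises below. The falls lay between 26.8-fold and 41.9-fold as measured, with adjusted p of 2.34e-05 to 4.10e-05. Detection was asked at GV alone, and for 4 of the 12 no MII array reached the 90th percentile of its negative controls, which is called at background below. The fold of such a gene is given as a lower bound, with each array of its dim stage set to that percentile. Of these 12 genes, 6 encode parts of the respiratory chain or proteins of the inner mitochondrial membrane. Ndufa2, a subunit of complex I, headed them with log2 signals of 8.03, 8.88 and 8.77 in MII oocytes and 13.97, 13.76 and 14.11 in GV oocytes (-5.39, SE 0.24, adjusted p = 2.34e-05). Every MII array was below 9 while all 3 GV arrays were above 13. Uqcrq, a small subunit of complex III at chr11:53427922-53430831, read 7.41, 7.47 and 7.34 in MII oocytes and 12.46, 12.66 and 12.68 in GV oocytes (-5.19, SE 0.23). The stages were as far apart there, with almost no spread among the MII arrays. Atp5e, the epsilon subunit of ATP synthase, was at least 15.6-fold lower at MII, and Mtln, which encodes the small membrane peptide mitoregulin, at least 10.7-fold lower. Dnajc15, a cochaperone of the mitochondrial import motor, changed by -5.08. Ndufb4b, a copy of the complex I gene Ndufb4, changed by -4.77, and its probes may read the parent gene too.

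The remaining 6 belonged to other systems. Ftdc1, which encodes a protein with a ferritin domain and lies at chr16:58613686-58616978, read 11.09, 11.43 and 12.13 in MII oocytes and 16.90, 16.55 and 16.89 in GV oocytes (-5.23, SE 0.27, adjusted p = 3.19e-05). It was bright at both stages, and its MII arrays were still more than 4 log2 units below its GV arrays. Psmb1, a beta subunit of the 20S proteasome core at chr17:15475721-15498276, read 9.69, 9.98 and 10.24 in MII oocytes and 15.10, 14.64 and 15.24 in GV oocytes (-5.02, SE 0.24). Ccnd2 encodes cyclin D2, a partner of Cdk4 and Cdk6, and read 4.99, 5.48 and 5.43 in MII oocytes and 10.20, 10.78 and 9.64 in GV oocytes, which makes it at least 14.4-fold lower at MII (adjusted p = 3.43e-05). Its MII arrays were not distinguishable from background. Tbcb, a cofactor that folds alpha-tubulin, changed by -4.74, and Trappc2l, a subunit of the TRAPP vesicle tethering complex, was at least 20.3-fold lower. Rpl35, a protein of the large ribosomal subunit, changed by -4.97, but its cluster was placed on chromosome 1 whereas the gene lies on chromosome 2, so that cluster may read a processed copy.

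**Figure D1:**
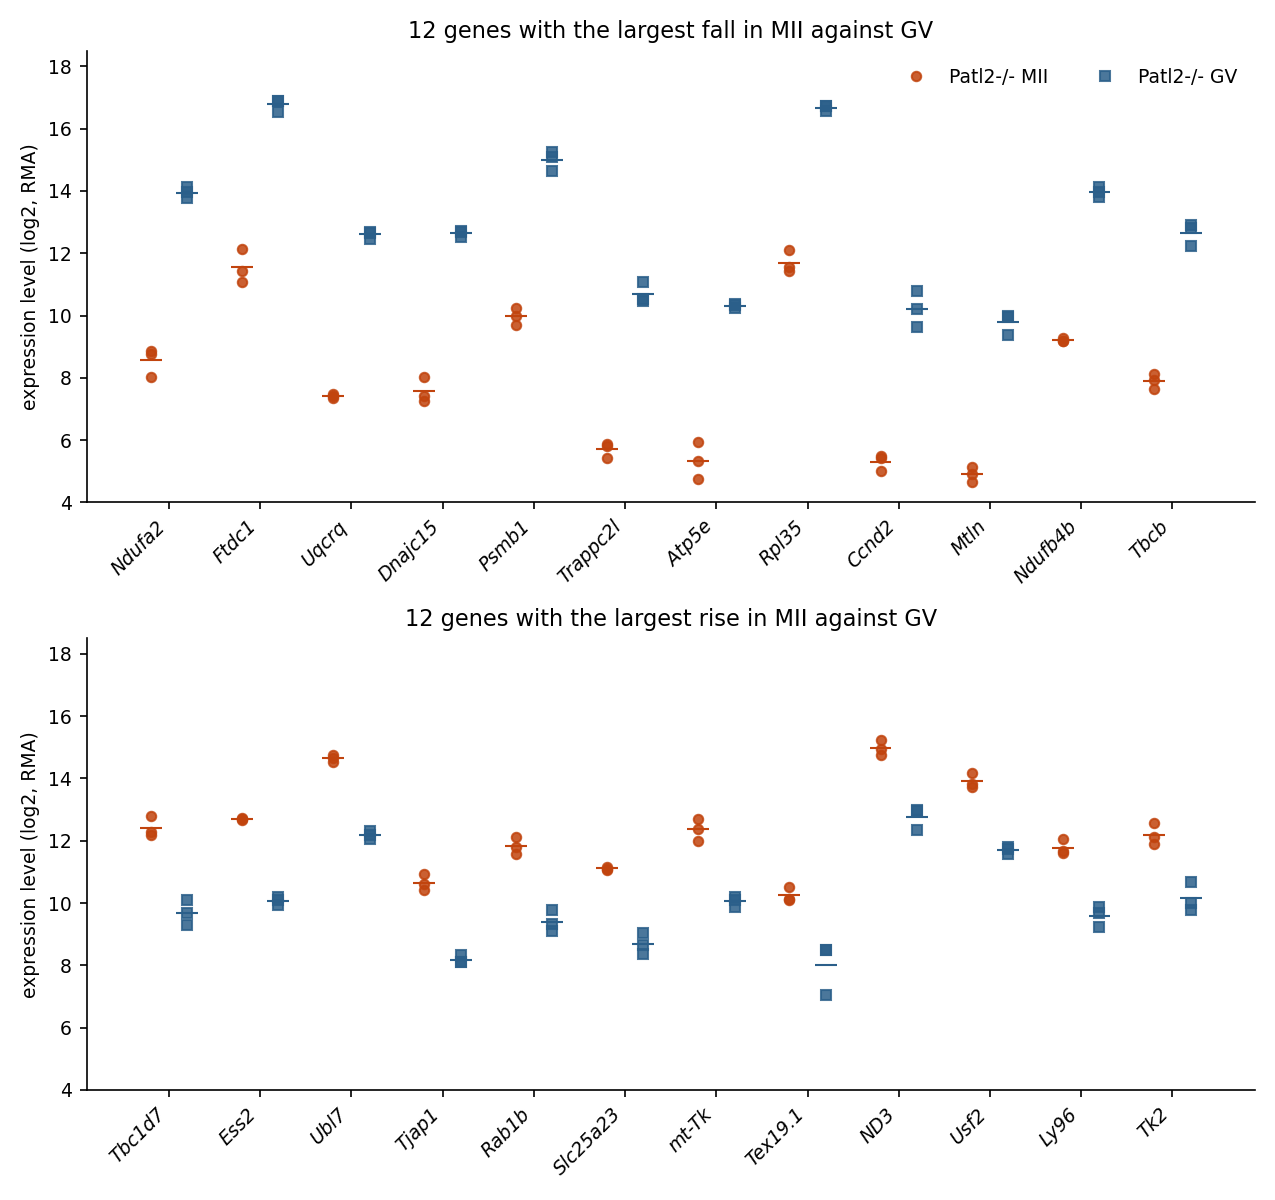
Log2 signal of each array for the 12 named genes that fell most (upper panel) and the 12 that rose most (lower panel). Circles are Patl2-/- MII arrays, squares are Patl2-/- GV arrays and short lines are group means. Separation of the 3 MII arrays from the 3 GV arrays was a condition for choosing all 24 genes. The gaps are wider for the falls (26.8-fold to 41.9-fold as measured) than for the rises (4.11-fold to 6.62-fold). The MII values of Atp5e, Ccnd2, Mtln and Trappc2l lie at background.

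The 12 largest rises among named genes with a mean level of at least 7 at MII were smaller, at 4.11-fold to 6.62-fold, with adjusted p of 4.81e-05 to 0.0101. Tbc1d7, a subunit of the TSC complex that restrains mTORC1, read 12.79, 12.20 and 12.28 in MII oocytes and 9.29, 9.68 and 10.11 in GV oocytes (2.73, SE 0.32, adjusted p = 0.00118) and lies at chr13:43151740-43171501. Its lowest MII array was about 2 log2 units above its highest GV array. Ess2 is a nuclear protein that joins the spliceosome, and it read 12.74, 12.71 and 12.68 in MII oocytes and 9.94, 10.10 and 10.19 in GV oocytes (2.63, SE 0.15, adjusted p = 4.81e-05). Its 3 MII arrays were nearly the same. Rab1b, a GTPase of traffic between the endoplasmic reticulum and the Golgi, read 11.59, 11.79 and 12.11 in MII oocytes and 9.10, 9.34 and 9.77 in GV oocytes (2.42, SE 0.26). Usf2, a helix-loop-helix transcription factor, changed by 2.20, and Ubl7, which carries a ubiquitin-like domain, by 2.48. Tjap1, a protein of tight junctions and the Golgi, changed by 2.47. Ly96, the partner of the receptor Tlr4, changed by 2.18.

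Several of the rises were mitochondrial or germline genes. Slc25a23, a carrier of ATP-Mg and phosphate in the inner mitochondrial membrane, changed by 2.42. Tk2, the mitochondrial thymidine kinase, read 12.58, 11.88 and 12.13 in MII oocytes and 10.69, 9.78 and 10.01 in GV oocytes (2.04, SE 0.27, adjusted p = 0.00238). Tex19.1 acts in the germline against retrotransposons and read 10.10, 10.52 and 10.15 in MII oocytes and 8.49, 7.05 and 8.49 in GV oocytes (2.24, SE 0.41, adjusted p = 0.0101). One GV array of Tex19.1 was well below the others. Its stages did not overlap, which was a condition of its choice. The calls of Tk2 and Tex19.1 were lost under the methods' ANOVA after adjustment, at adjusted p of 0.0719 and 0.123.

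Genes of oxidative phosphorylation fell together. The nuclear genes encode most subunits of the complexes that pass electrons to oxygen and of the ATP synthase that uses the resulting proton gradient. Of 33 complex I genes measured, 29 fell, none rose and 4 did not pass the test, with a median log2 change of -1.36. Over the 6496 genes read from 1 cluster each at level 8 or more, the median was 0.04 and 20.0% fell. Over all 65956 clusters, most of them dim, the median was -0.01 and 7.14% fell. Ndufb7 read 5.49, 5.67 and 5.51 in MII oocytes and 9.87, 10.27 and 9.90 in GV oocytes, with MII arrays at background, and was at least 12.6-fold lower (adjusted p = 2.73e-05). Ndufb9 and Ndufa5 changed by -4.24 and -3.84. The fall was not shared by every subunit. Ndufa10 read 12.74, 12.74 and 12.70 in MII oocytes and 12.67, 12.67 and 12.63 in GV oocytes, a difference of 0.07 (adjusted p = 0.614).

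Of 42 genes of complexes II to V, 30 fell and 3 rose, with a median change of -1.30. Complex III was almost wholly lower, with 8 of 9 genes falling. In complex IV 8 of 11 fell, in ATP synthase 11 of 17 and in complex II 2 of 4. Cox4i1, a regulatory subunit of cytochrome c oxidase, averaged 6.69 ± 0.50 in MII oocytes and 11.02 ± 0.09 in GV oocytes (mean and SD of 3 arrays each), a change of -4.33 (SE 0.24), and Uqcr11 of complex III changed by -3.75. The 3 that rose were Atp5d (at background at GV, and at least 2.21-fold higher at MII) and Atp5g1 (0.95), both of ATP synthase, and Uqcrc2 (0.70), a core protein of complex III. Of complex I, 0 rose and 25 to 30 fell without single arrays, and 1 rose and 26 fell after a further quantile normalization. Of complexes II to V, 3 rose and 26 to 31 fell without single arrays, and 5 rose and 26 fell after a further quantile normalization. The MII arrays were all at background for 6 of the 29 falls of complex I and 6 of the 30 falls of complexes II to V, and 3 of the complex I genes were at background at GV too. With such values set to the percentile the medians were -1.36 and -1.17.

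For RNA encoded by the mitochondrial genome no cluster was called lower. Its 11 named clusters included 5 that rose and 6 that did not pass, with a median change of 0.44. ND3, a complex I subunit made inside mitochondria, read 14.94, 15.22 and 14.77 in MII oocytes and 12.96, 12.35 and 13.00 in GV oocytes (2.21, SE 0.20, adjusted p = 3.64e-04). A cluster for the mitochondrial lysine tRNA, mt-Tk, read 12.71, 12.38 and 12.00 in MII oocytes and 9.87, 10.18 and 10.11 in GV oocytes (2.31, SE 0.21, adjusted p = 3.62e-04). Both lay at least 1 log2 unit higher on every MII array than on any GV array. The joint cluster of ND4 and ND4L changed by 1.06 (adjusted p = 0.0034) and that of ND5 and CYTB by 0.53 (adjusted p = 0.022). ND2 changed by 1.00, a call lost in 3 of the alternatives. In contrast COX1 read 15.72, 15.66 and 15.81 in MII oocytes and 15.51, 15.69 and 15.62 in GV oocytes, a difference of 0.12 (adjusted p = 0.414). The small ribosomal RNA, mt-Rnr1, averaged 16.56 in MII oocytes and 16.44 in GV oocytes, a difference of 0.12 (adjusted p = 0.789). The brightest of the 11 clusters were among those that did not pass, and whether high signal limits such readings was not tested.

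Ribosomal protein genes fell in both compartments. Ribosomal proteins form, with ribosomal RNA, the machines that translate mRNA in the cytosol and in mitochondria. Of 36 cytosolic ribosomal protein genes with a cluster of their own, 30 fell and none rose, with a median change of -1.59. Rps4x, a protein of the small subunit, read 7.22, 8.41 and 8.01 in MII oocytes and 12.54, 12.22 and 12.61 in GV oocytes (-4.58, SE 0.31, adjusted p = 9.63e-05). MII replicate 1 gave the lowest value, and no array crossed between stages. Rps29 changed by -4.50, and a cluster named for Rpl7a, which lies on chromosome 9 whereas the gene is on chromosome 2, by -4.55. These genes have many processed copies. In 8 of the 36, Rpl7a and Rpl35 among them, the cluster was placed on another chromosome than the gene, and in the 28 others 23 fell and none rose, with a median of -1.39. Of the 36, 0 rose and 27 to 30 fell without single arrays, and 0 rose and 27 fell after a further quantile normalization. No MII array was above background for 7 of the 30 falls, and with such values set to the percentile of the negative controls the median was -1.46. Clusters named for ribosomal protein pseudogenes were lower too, 158 of 209, with 3 higher. Which copy gives the signal cannot be told apart with these probes.

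The mitochondrial ribosome showed the same direction with clusters placed on the chromosome of the gene in all 73 cases. Of these 73 genes, 47 fell and 2 rose, with a median of -0.89. The small subunit contributed 19 falls among 28 genes and the large subunit 28 among 45. Mrps18c read 7.51, 7.58 and 8.09 in MII oocytes and 12.26, 12.33 and 12.65 in GV oocytes (-4.69, SE 0.22, adjusted p = 2.37e-05). Mrps22 changed by -3.89. Mrpl46 and Mrpl11, with MII arrays at background, were at least 16.3-fold and at least 4.31-fold lower. All arrays of these 4 genes were separated by stage. The 2 rises, Mrpl34 (0.74) and Mrpl3 (0.59), were lost in 8 and 11 alternatives. For this list 0 to 2 rose and 37 to 45 fell without single arrays, and 10 rose and 38 fell after a further quantile normalization. No MII array was above background for 15 of the 47 falls, and with such values set to the percentile of the negative controls the median was -0.55.

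**Figure D2:**
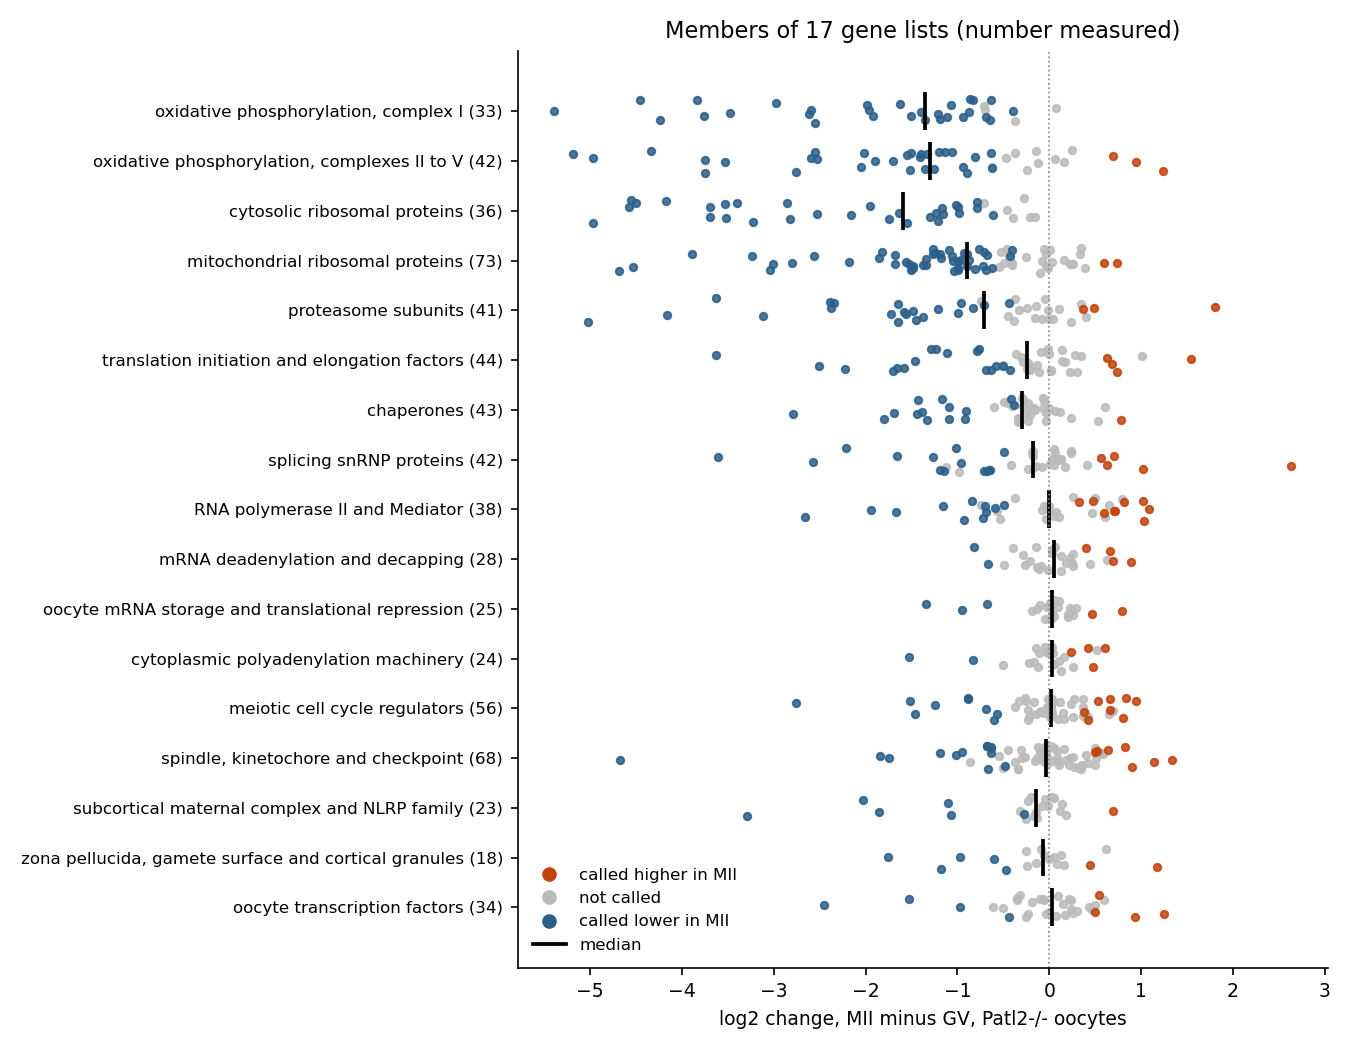
Each row is one of 17 gene lists, with the number measured, and each point is the log2 change of a gene, MII minus GV in Patl2-/- oocytes, coloured by whether it was called higher, lower or neither, with a bar at the median. As measured, the lists of oxidative phosphorylation and ribosomal proteins have the medians furthest to the left, -1.59 to -0.89. With values at background set to the percentile of the negative controls, the mitochondrial ribosomal median is -0.55 and the proteasome median -0.71. The points of the meiotic cell cycle list lie on both sides of 0.

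Proteasome genes fell in part. The proteasome degrades ubiquitin-tagged proteins and consists of a 20S core capped by 19S particles. Of 41 genes, 21 fell, 3 rose and 17 did not pass, with a median change of -0.71. Psma6, an alpha subunit of the core, read 10.09, 10.24 and 10.25 in MII oocytes and 14.52, 14.04 and 14.51 in GV oocytes (-4.17, SE 0.13, adjusted p = 8.75e-06), with little spread within either stage. Psmb4 of the core and Psmd6 of the 19S lid changed by -3.63 and -3.12. Among the 6 ATPases of the 19S base 5 fell. Psmd3, also a 19S subunit, went the other way with 11.12, 11.37 and 11.27 in MII oocytes and 9.35, 9.49 and 9.50 in GV oocytes (1.81, SE 0.19, adjusted p = 7.55e-04), so subunits of a single particle moved in opposite directions. Psmb7 and Psmd2 rose by less (0.49 and 0.37), the rise of Psmd2 being lost in 10 alternatives. Of the proteasome list, 2 to 4 rose and 15 to 21 fell without single arrays, and 8 rose and 16 fell after a further quantile normalization.

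The translation factors were split in a similar way. Of 44 initiation and elongation factors, 17 fell and 4 rose, and the median was -0.24, against 0.10 after a further quantile normalization. By array and scaling, 3 to 6 rose and 12 to 18 fell without single arrays, and 16 rose and 13 fell after a further quantile normalization. Falls were frequent in eIF3, the large complex that readies the small ribosomal subunit for mRNA, where 7 of 11 subunits fell. Eif3m read 9.33, 8.74 and 9.35 in MII oocytes and 12.77, 12.55 and 12.99 in GV oocytes (-3.63, SE 0.18, adjusted p = 2.99e-05). Eif3k and Eif3h changed by -2.50 and -2.23, and Eif1ax, which encodes another factor that scans for the start codon, by -1.70. Eif3b, the scaffold of the same complex, rose instead and read 11.86, 11.70 and 11.95 in MII oocytes and 10.12, 10.44 and 10.30 in GV oocytes (1.55, SE 0.13, adjusted p = 2.63e-04). In both genes the stages were fully apart. Of 11 eIF4 factors, which bind the cap and unwind the leader, none fell and Eif4b alone rose (0.63). Of the poly(A)-binding proteins, Pabpc1 changed by -1.59 and the oocyte form Pabpc1l by 0.74.

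**Figure D3:**
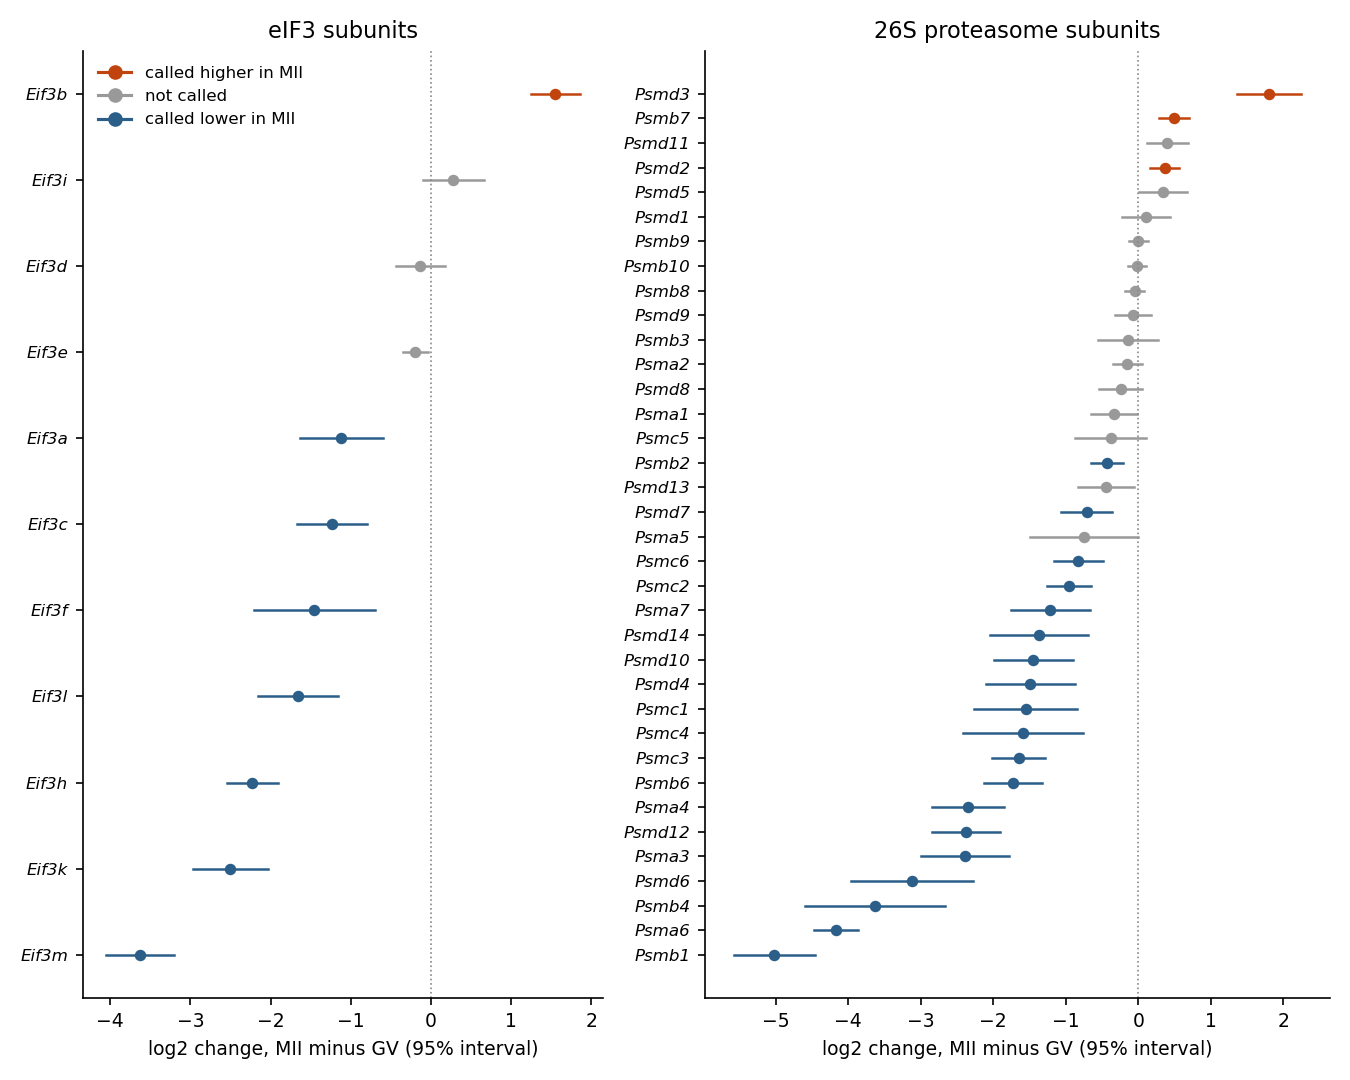
Log2 change, MII minus GV in Patl2-/- oocytes, of the 11 eIF3 subunits (left) and 36 subunits of the 26S proteasome (right), with bars for the 95% interval and colour for the call. Eif3b (1.55) and Psmd3 (1.81) lie on the opposite side from Eif3m (-3.63) and Psmb1 (-5.02).

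Genes for mRNA decay and storage were called at shares below those of all genes at level 8 or more. Deadenylases shorten poly(A) tails and decapping enzymes open the other end for decay. Of 28 such genes 4 rose (14.3%) and 2 fell (7.14%), with a median of 0.05 (2 to 6 rose and 0 to 2 fell without single arrays, and 16 rose and 0 fell after a further quantile normalization). Pan2, the catalytic subunit of a deadenylase, read 12.82, 12.67 and 12.99 in MII oocytes and 11.72, 12.05 and 12.01 in GV oocytes (0.90, SE 0.12, adjusted p = 0.00274), and Dcp1a, a decapping activator, changed by 0.69. Patl1, the widely expressed relative of Patl2, changed by 0.66 (adjusted p = 0.0221), a call lost without GV replicate 1 or GV replicate 2. Of 9 CCR4-NOT subunits 1 rose and 1 fell.

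Among 25 genes of mRNA storage and translational repression 2 rose (8.0%) and 3 fell (12.0%), Patl2 among those that fell (0 to 2 rose and 2 to 3 fell without single arrays, and 14 rose and 1 fell after a further quantile normalization). Cpeb1, which binds the cytoplasmic polyadenylation element, read 9.50, 9.33 and 9.38 in MII oocytes and 10.21, 10.62 and 10.25 in GV oocytes (-0.95, SE 0.15, adjusted p = 0.00437). Ybx2, an abundant binder of stored mRNA, read 13.67, 13.52 and 13.67 in MII oocytes and 12.64, 13.21 and 12.64 in GV oocytes (0.79, SE 0.15, adjusted p = 0.013). The fall of Cpeb1 was lost after a further quantile normalization, and the rise of Ybx2 without MII replicate 1 or MII replicate 3. Ddx6, a helicase of stored ribonucleoproteins, read 8.75, 9.54 and 8.72 in MII oocytes and 8.96, 8.99 and 8.44 in GV oocytes, a difference of 0.21 (adjusted p = 0.755) with overlapping stages. In the polyadenylation machinery 4 of 24 genes rose (16.7%) and 2 fell (8.33%), among them Cpsf4l (-1.53), a relative of a cleavage factor. For that list, 2 to 4 rose and 2 to 3 fell without single arrays, and 12 rose and 1 fell after a further quantile normalization.

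Nuclear RNA machinery held calls of both directions. Of 42 spliceosome proteins 14 fell (33.3%) and 5 rose (11.9%). Bud31 changed by -2.57, Lsm4 by -2.22 and Ess2 by 2.63, and Snrnp25, at background at MII, was at least 9.89-fold lower. In the spliceosome list 3 to 5 rose and 7 to 14 fell without single arrays, and 14 rose and 6 fell after a further quantile normalization. Of 38 subunits of RNA polymerase II and Mediator 11 fell (28.9%) and 9 rose (23.7%; 4 to 11 rose and 6 to 13 fell without single arrays, and 17 rose and 5 fell after a further quantile normalization). Polr2i, a small polymerase subunit, read 6.88, 7.22 and 7.31 in MII oocytes and 9.85, 9.72 and 9.82 in GV oocytes (-2.66, SE 0.21, adjusted p = 1.77e-04), while Polr2e changed by 1.02. In Mediator, which links transcription factors to the polymerase, Med29 changed by -1.94 and Med25 by 1.03.

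Cell cycle regulators were called about as often as other genes at level 8 or more. Resumption of meiosis depends on a fall in cAMP, on Cdk1 with its cyclins and on the anaphase-promoting complex. Of 56 regulators 8 rose (14.3%), 9 fell (16.1%) and 39 did not pass, with a median of 0.02 (4 to 9 rose and 6 to 9 fell without single arrays, and 28 rose and 5 fell after a further quantile normalization). Anapc13, a small subunit of the anaphase-promoting complex, read 11.78, 11.97 and 12.70 in MII oocytes and 15.04, 14.63 and 15.05 in GV oocytes (-2.76, SE 0.34, adjusted p = 0.00154), whereas 11 of 14 subunits of that complex did not pass. Cdk1 read 8.34, 8.20 and 8.41 in MII oocytes and 9.80, 9.82 and 9.74 in GV oocytes (-1.47, SE 0.14, adjusted p = 5.39e-04). All MII arrays of Cdk1 were more than 1 log2 unit below the GV arrays. Cdc25c, a phosphatase that activates Cdk1, was at background at MII and at least 1.52-fold lower, and Cdk7, the kinase that activates Cdk1, changed by -1.25.

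On the cAMP side, Pde3a, the phosphodiesterase that lowers oocyte cAMP, read 12.52, 12.43 and 12.78 in MII oocytes and 11.79, 11.72 and 11.37 in GV oocytes (0.95, SE 0.15, adjusted p = 0.00451). Gpr3, the receptor that keeps cAMP high, changed by 0.84 (SE 0.09). Wee2, the oocyte kinase that restrains Cdk1, changed by 0.53. Mos, the kinase that keeps eggs at metaphase II, read 14.02, 14.18 and 14.70 in MII oocytes and 13.99, 13.91 and 13.82 in GV oocytes, a difference of 0.39 (adjusted p = 0.208), and Ccnb2, a cyclin B, a difference of 0.42 (adjusted p = 0.0555).

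Among 68 spindle, kinetochore and checkpoint genes 13 fell (19.1%) and 7 rose (10.3%; 3 to 8 rose and 9 to 13 fell without single arrays, and 27 rose and 6 fell after a further quantile normalization). Spc24 encodes a part of the Ndc80 complex, which ties kinetochores to microtubules, and read 8.37, 7.96 and 8.55 in MII oocytes and 12.95, 12.99 and 12.94 in GV oocytes (-4.67, SE 0.21, adjusted p = 2.34e-05). Its fall was the largest of the 13. Of 15 CENP genes, which build the inner kinetochore, 7 fell and 1 rose, with Cenpq at -1.85 and Cenpp at -1.74. Tacc3, a spindle protein, changed by -1.19. Bub1b, the checkpoint protein BubR1, read 14.95, 15.01 and 15.04 in MII oocytes and 13.76, 13.83 and 13.99 in GV oocytes (1.14, SE 0.14, adjusted p = 0.00142), and its relative Bub1 changed by -1.02, a call lost after a further quantile normalization.

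Of 38 cohesin and chromosome genes 3 rose (7.89%) and 2 fell (5.26%; 2 to 4 rose and 1 to 3 fell without single arrays, and 11 rose and 1 fell after a further quantile normalization). Separase, encoded by Espl1, cuts cohesin at anaphase, and its gene read 12.89, 12.55 and 12.99 in MII oocytes and 11.75, 11.46 and 11.73 in GV oocytes (1.16, SE 0.17, adjusted p = 0.00344). Smc1b, the meiotic cohesin subunit, changed by -1.15. Of 13 tubulin genes Tuba1a (-0.80) and Tuba1c (-0.77) fell, and Tubb4b (0.74), Tubb6 (0.72) and Tubb2a (0.41) rose. The cluster read here for Tuba1c lies on chromosome 13, whereas the gene is on chromosome 15, so it may read a copy. Another cluster named for Tuba1c, on chromosome 15, changed by -0.65 (adjusted p = 0.0454). The falls of Tuba1a and of the chromosome 13 cluster were lost after a further quantile normalization. In the list 0 to 3 rose and 2 to 3 fell without single arrays, and 6 rose and 0 fell after a further quantile normalization.

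Most genes expressed mainly by oocytes did not pass the test, and a few fell. The subcortical maternal complex is a protein lattice beneath the egg membrane that early embryos need. Among 23 genes of this complex and the NLRP family 6 fell (26.1%) and 1 rose (4.35%; 0 to 2 rose and 5 to 7 fell without single arrays, and 7 rose and 5 fell after a further quantile normalization). Khdc3, which encodes the Filia protein of the complex, read 9.87, 9.88 and 10.72 in MII oocytes and 13.43, 13.54 and 13.38 in GV oocytes (-3.29, SE 0.24, adjusted p = 1.22e-04). Ooep, another component, read 9.30, 9.38 and 9.83 in MII oocytes and 11.39, 11.25 and 11.43 in GV oocytes (-1.85, SE 0.20). Nlrp5, the gene for Mater, read 15.08, 15.17 and 15.08 in MII oocytes and 15.42, 15.43 and 15.24 in GV oocytes, a difference of -0.25 (adjusted p = 0.0896), and Tle6 a difference of -0.05 (adjusted p = 0.801).

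Dppa5a, a KH-domain gene from the same family as Ooep and Khdc3, read 14.94, 14.63 and 15.23 in MII oocytes and 16.98, 16.82 and 17.11 in GV oocytes (-2.03, SE 0.16, adjusted p = 1.77e-04). Nlrp2 changed by -1.07, and Npm2, a histone chaperone that opens sperm chromatin, by -1.10. Of 22 histone and histone chaperone genes 4 fell (18.2%) and none rose (0 rose and 2 to 5 fell without single arrays, and 7 rose and 2 fell after a further quantile normalization), led by the variant histone gene H2az2 with 7.56, 7.86 and 8.34 in MII oocytes and 11.29, 11.19 and 11.06 in GV oocytes (-3.26, SE 0.27).

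At the egg surface, Cd9, the tetraspanin needed for sperm fusion, read 7.58, 7.33 and 6.94 in MII oocytes and 9.20, 8.97 and 8.96 in GV oocytes (-1.76, SE 0.20, adjusted p = 0.00101), and Oosp2, a secreted oocyte protein, changed by -1.18. Of the zona pellucida genes, Zp3 changed by -0.97 and Zp2 by -0.60. Zp1 read 17.23, 17.16 and 17.20 in MII oocytes and 17.20, 17.18 and 17.21 in GV oocytes, a difference of 0.00 (adjusted p = 0.997), but these levels lie near the top of the scale, where the brightest cluster read 18.14 to 18.19 at MII and 17.99 to 18.20 at GV, and a change may not be readable there. The fall of Zp2 was lost after a further quantile normalization. Astl, the cortical granule protease ovastacin that cleaves Zp2 after fertilisation, rose and read 13.26, 13.17 and 13.43 in MII oocytes and 11.90, 11.94 and 12.51 in GV oocytes (1.17, SE 0.16, adjusted p = 0.00277). In the list of 18 such genes 5 fell (27.8%) and 2 rose (11.1%; 1 to 2 rose and 4 to 5 fell without single arrays, and 7 rose and 3 fell after a further quantile normalization).

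The growth factors Gdf9 and Bmp15, by which the oocyte acts on its granulosa cells, showed differences of -0.01 and 0.04 (adjusted p = 0.961 and 0.846). Bmp15 averaged 16.96 at MII and 16.92 at GV, close to the level of Zp1, so a change may not be readable there. In the list of Gdf9 and Bmp15 3 of 26 genes fell (11.5%) and 1 rose (3.85%; 0 to 2 rose and 1 to 5 fell without single arrays, and 9 rose and 2 fell after a further quantile normalization). Of 34 oocyte transcription and chromatin factors 4 fell and 4 rose (11.8% each; 3 to 6 rose and 2 to 4 fell without single arrays, and 18 rose and 3 fell after a further quantile normalization). Figla, which switches on the zona genes in growing oocytes, read 6.76, 7.12 and 6.96 in MII oocytes and 9.69, 9.11 and 9.39 in GV oocytes (-2.45, SE 0.18, adjusted p = 1.25e-04), and Tbpl2, the oocyte form of the TATA-binding protein, was at background at MII and at least 2.36-fold lower. Sall4, a zinc finger factor of early embryos, read 14.21, 14.27 and 13.96 in MII oocytes and 12.63, 13.13 and 12.93 in GV oocytes (1.25, SE 0.16, adjusted p = 0.00176), and Tet3, which oxidises 5-methylcytosine in the zygote, changed by 0.93. Of 24 genes of egg activation and calcium 4 rose (16.7%) and 2 fell (8.33%), with Orai1, a calcium channel, at -0.90. In that list 1 to 4 rose and 1 to 3 fell without single arrays, and 9 rose and 1 fell after a further quantile normalization.

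**Figure D4:**
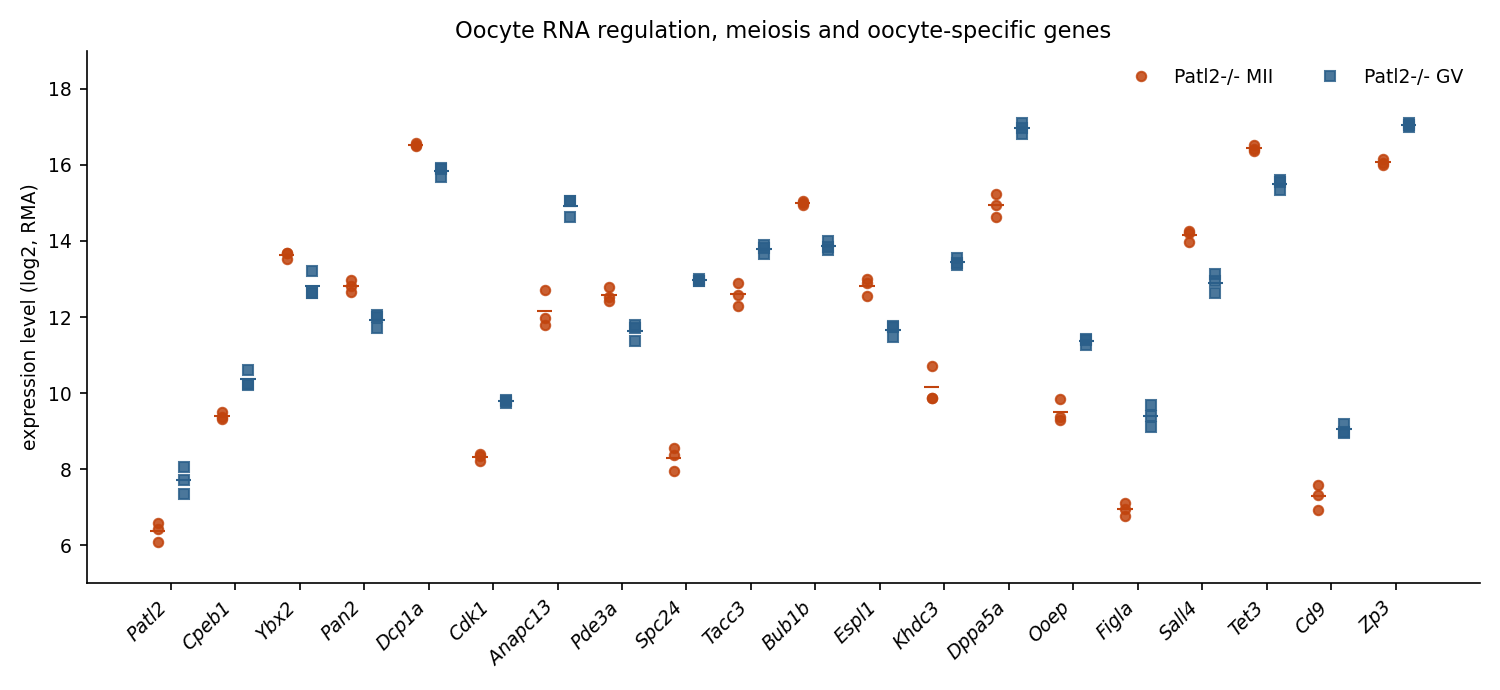
Log2 signal by array of 20 genes of RNA regulation, meiosis and the oocyte, with circles for Patl2-/- MII arrays, squares for Patl2-/- GV arrays and short lines for group means. Spc24 (-4.67), Khdc3 (-3.29) and Figla (-2.45) show wide gaps with MII below GV, and Bub1b (1.14) and Sall4 (1.25) lie with MII above GV.

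Of 43 chaperone genes, which help other proteins to fold, 14 fell (32.6%) and 1 rose (2.33%; 1 to 2 rose and 11 to 16 fell without single arrays, and 6 rose and 11 fell after a further quantile normalization). Bag1, a cochaperone of Hsp70, read 7.06, 7.91 and 7.26 in MII oocytes and 10.33, 10.05 and 10.21 in GV oocytes (-2.79, SE 0.24, adjusted p = 2.71e-04), and 5 of 7 subunits of CCT, the ring that folds tubulin and actin, fell, with Cct3 at -1.69. Of 32 genes for glutathione, thioredoxin and antioxidant enzymes 10 fell (31.2%) and 3 rose (9.38%; 1 to 3 rose and 6 to 9 fell without single arrays, and 6 rose and 4 fell after a further quantile normalization). Glrx5, a mitochondrial glutaredoxin of iron-sulphur assembly, averaged 10.34 ± 0.30 in MII oocytes and 14.03 ± 0.22 in GV oocytes (mean and SD of 3 arrays each), a change of -3.68 (SE 0.21), whereas Glrx, its cytosolic counterpart, changed by 1.05. Prdx4, a peroxiredoxin of the endoplasmic reticulum, was at background at MII and at least 4.31-fold lower.

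In glycolysis and the tricarboxylic acid cycle 6 of 31 genes fell (19.4%) and 2 rose (6.45%), with Sucla2, a subunit of succinyl-CoA ligase, at -1.87 and Cs, citrate synthase, at 0.82 (2 rose and 4 to 7 fell without single arrays, and 7 rose and 4 fell after a further quantile normalization). Of 20 tRNA synthetase genes 4 fell (20.0%) and 3 rose, shares near those of all genes at level 8 or more, with Rars at -1.81 and Wars at 0.94 (2 to 3 rose and 3 to 4 fell without single arrays, and 7 rose and 3 fell after a further quantile normalization). Cholesterol genes gave 4 rises (17.4%) and 3 falls (13.0%) among 23, with Stard4, a sterol carrier, at -1.38 and Nsdhl, a late enzyme of synthesis, at 1.15 (3 to 4 rose and 1 to 3 fell without single arrays, and 11 rose and 2 fell after a further quantile normalization). Of 27 measured genes that the study lists as lower without Patl2, a list chosen on these samples and so not independent evidence, 4 rose between the Patl2-/- stages and 1 fell (2 to 4 rose and 1 to 3 fell without single arrays, and 8 rose and 1 fell after a further quantile normalization).

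Small RNA loci were also on the array. MicroRNAs are short RNAs that pair with messages through bases 2 to 8, the seed. Clusters named for a single miRNA gene numbered 645, of which 22 rose and 27 fell, with a median of 0.00. Of 631 miRNA genes read from 1 cluster each, 3.17% rose and 3.96% fell. These shares are below those of all genes read in that way, 5.70% and 8.73%, but the loci were dim. The 645 clusters had a median level of 4.37, and 39 of them averaged at least 8 at GV. Over all clusters under level 6, 0.81% rose and 2.20% fell. The lower shares are therefore not a result about miRNA loci. These clusters measure total RNA over the locus and not the mature miRNA. The mature sequences below, from RefSeq for GRCm38.p6, are shown for some of the loci that changed, each with its cluster on the chromosome of the gene. Each runs 5′ to 3′ with the seed in capitals.
miR-703 (chr5:98475616-98475636, minus strand): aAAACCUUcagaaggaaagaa
miR-3472 (chrX:145039390-145039414, plus strand): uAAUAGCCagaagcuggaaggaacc
miR-692 (chr17:6895259-6895279, minus strand): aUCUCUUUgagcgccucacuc
miR-483-3p (chr7:142654932-142654952, minus strand): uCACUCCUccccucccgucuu
miR-483-5p (chr7:142654968-142654989, minus strand): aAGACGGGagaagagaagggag
miR-467h (chr9:115381898-115381919, plus strand): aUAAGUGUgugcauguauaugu

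No seed was shared among these miRNAs. The Mir703 cluster read 13.32, 14.71 and 14.24 in MII oocytes and 16.55, 16.73 and 16.49 in GV oocytes (-2.50, SE 0.32, adjusted p = 0.00198). MII replicate 1 gave its lowest value and no array crossed between stages. Mir3472 read 6.65, 8.20 and 7.07 in MII oocytes and 9.72, 10.10 and 9.29 in GV oocytes (-2.39, SE 0.56, adjusted p = 0.0309). Mir692-1 changed by -1.28 (adjusted p = 0.0489) and Mir483, whose locus lies within the imprinted gene Igf2, by -0.88 (adjusted p = 0.0084). Mir467h rose and read 8.78, 8.56 and 8.77 in MII oocytes and 7.23, 7.52 and 7.68 in GV oocytes (1.22, SE 0.20, adjusted p = 0.00691).

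Mir467h belongs to a repeat-derived family with Mir297, Mir466 and Mir669, whose copies are nearly identical. Of the 87 clusters of this family 7 rose and 8 fell. On chromosome 2, which holds 68 of them, 2 rose and 6 fell, and elsewhere 5 of 19 rose and 2 fell. The median level was 5.35 on chromosome 2 and 8.25 elsewhere, so these groups differ in brightness as well as in place. Over all 65956 clusters 3.37% rose and 7.14% fell, and over those at level 8 or more 15.2% and 25.4%. The 87 clusters gave 65 distinct sets of values, and the 68 on chromosome 2 gave 46, so some readings are counted more than once. Signal of one copy and that of another cannot be told apart by these probes.

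The genes that changed shared features that the comparison did not use. Among 30176 genes with 1 cluster each, 30171 were found in RefSeq. Of 4439 pseudogenes 19.1% fell and 6.15% rose, against 7.75% and 6.75% of 19128 protein-coding genes. Of 3207 long noncoding RNA genes 3.99% fell and 1.12% rose, and of 955 small nucleolar RNA genes 3.25% fell and 6.60% rose. Protein-coding genes that fell were short on the genome, with a median span of 14.1 kb, against 30.7 kb for those that rose and 18.1 kb for those not called. For the 196 that fell by at least 4-fold the median was 6.01 kb. At levels of 8 or more the medians were 14.3 kb for falls, 33.8 kb for rises and 32.1 kb for genes not called. These are descriptions without a test, and pseudogene clusters may read their parent genes.

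To ask whether maturation differed without Patl2, the change in Patl2-/- oocytes was set against that in WT oocytes, measured on the other 4 arrays. The paper reports that more ovulated oocytes were short of MII in Patl2-/- than in WT mice. It also reports smaller diameters for Patl2-/- than for WT oocytes at both stages. How the stage was scored for the MII pools is not stated. The part of oocytes short of MII, or of oocyte size, in any genotype difference was not tested. In WT 3426 clusters fell (5.19%) and 1293 rose (1.96%), 2595 (3.93%) and 315 (0.478%) of them by at least 2-fold. Across the 9204 clusters at level 8 or more the Patl2-/- and WT changes correlated at r = 0.932, as a description across clusters, which are not independent replicates. Of the 4708 falls in Patl2-/- oocytes 2888 were also called as falls in WT, which is 61.3% of the Patl2-/- falls and 84.3% of the WT falls. Of the 2226 rises 732 were shared, 32.9% of the Patl2-/- rises and 56.6% of the WT rises. Each WT group had 2 arrays, against 3 in each Patl2-/- group. The sign was the same in WT for 96.6% of the falls and 96.3% of the rises.

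The difference itself, the Patl2-/- change minus the WT change, passed the adjusted test in limma for 0 clusters in either direction, with a smallest adjusted p of 0.335. At an unadjusted p under 0.05 there were 3952 clusters (5.99%). After Benjamini-Hochberg adjustment the methods' ANOVA called 12 differences higher and 5 lower. The precision was limited: at level 8 or more the 95% interval reached a median of 0.547 log2 units to either side of the estimate, without adjustment, and differences as large as that of Tuba1a below did not pass the adjusted test.

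**Figure D5:**
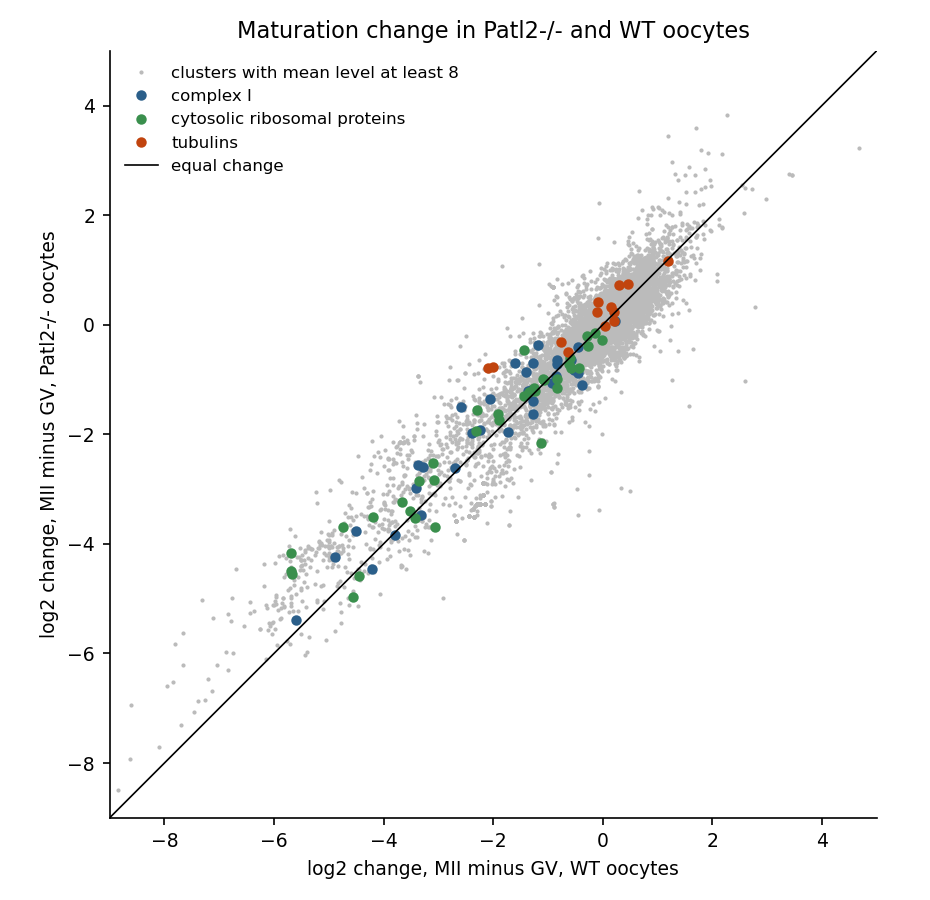
Log2 change from maturation in Patl2-/- oocytes set against that in WT oocytes, one point for each of the 9204 clusters with a mean level of 8 or more, with a line where the changes are equal. The points follow the line (r = 0.932), and of the coloured lists, complex I and cytosolic ribosomal protein genes spread along it while Tuba1a and the chromosome 13 cluster named for Tuba1c lie above it, with changes near -0.80 in Patl2-/- oocytes and -2.09 in WT oocytes.

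For the 12 named falls the interval of the difference included 0 in every case, and all 12 were called in WT too. Of the 12 named rises 10 were called in WT. They had been chosen for the size of their Patl2-/- change, which favours a larger value there than in WT, so the pairs that follow are a description. Ess2 rose by 2.63 in Patl2-/- oocytes and 1.96 in WT (difference 0.67, 95% interval 0.11 to 1.23), and mt-Tk by 2.31 and 1.18 (difference 1.13, 0.36 to 1.89). Neither passed the adjusted test of the difference. Set side by side, the median change of a list was -1.36 in Patl2-/- and -1.41 in WT for complex I, -1.59 and -1.67 for cytosolic ribosomal proteins, -0.89 and -0.81 for mitochondrial ribosomal proteins, and -0.71 and -0.63 for the proteasome.

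The genes given next had a small unadjusted p for the difference, were picked after their values were seen and did not pass the adjusted test. Tuba1a read 12.49, 12.57 and 12.64 in Patl2-/- MII oocytes and 13.46, 13.35 and 13.28 in Patl2-/- GV oocytes, against 10.65 and 10.85 in WT MII oocytes and 12.98 and 12.71 in WT GV oocytes. Its change was -0.80 in Patl2-/- and -2.09 in WT (difference 1.30, 95% interval 0.95 to 1.65, adjusted p = 0.335). The chromosome 15 cluster named for Tuba1c changed by -0.65 in Patl2-/- and -2.26 in WT (difference 1.61, 1.00 to 2.22, adjusted p = 0.455). The WT MII arrays were the low ones. Dppa5a likewise had its lowest levels there, at 14.94, 14.63 and 15.23 in Patl2-/- MII oocytes and 12.78 and 12.95 in WT MII oocytes, with changes of -2.03 and -4.04 (difference 2.01, 1.43 to 2.59). Khdc3 changed by -3.29 in Patl2-/- and -4.64 in WT (difference 1.34, 0.47 to 2.21). Eif3m went the other way, with -3.63 in Patl2-/- and -2.12 in WT (difference -1.51, -2.17 to -0.84). Snora30, which guides pseudouridylation of ribosomal RNA, read 6.90, 7.16 and 6.25 in Patl2-/- MII oocytes and 9.41, 9.72 and 10.12 in Patl2-/- GV oocytes, against 10.45 and 9.51 in WT MII oocytes and 9.44 and 9.86 in WT GV oocytes. The 3 Patl2-/- MII arrays of Snora30 stood apart from all the others (difference -3.31, -4.49 to -2.14, adjusted p = 0.434).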

How the data were processed

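RNA of 10 oocyte pools was hybridised to Clariom D mouse arrays, and the authors summarised the scans by RMA in Affymetrix Expression Console. The deposited values are log2 signals, normalized across arrays by the authors, and were used as given. No counts or depth exist for arrays, so the number of arrays, 3 for each Patl2-/- group and 2 for each WT group, limits the precision. From the values 6732 control features were left out, and 65956 transcript clusters were fitted in limma 3.58.1 (R 4.3.3; lmFit with 1 mean per group over all 10 arrays, contrasts, eBayes), two-sided, with Benjamini-Hochberg adjustment. The methods' own test, a 2-group ANOVA, was run as an alternative, as were a replicate block, other scalings, filters on level, a trended robust prior, array weights and fits without each array. The fit was checked on simulated data. For lists, each gene was read from the brightest cluster annotated to it alone. The experiment and the 32 lists were chosen with earlier results of these data known. Named genes were Patl2, the 12 largest called changes per direction with non-overlapping stages and a higher mean of at least 7, and up to 4 called members per list. Others, such as members that moved against their list, were picked after their values were seen or for their role. Types and spans of genes came from RefSeq (GRCm38.p6), in place of a planned description of protein length.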

Additional observations from a re-analysis of the deposited data

How the results depend on the processing

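All 25 named genes kept their direction in every alternative run on them. Of 522 such values 519 stayed on the same side of the threshold, and 3 did not, all under the methods' ANOVA after adjustment: Patl2 (adjusted p = 0.0886), Tex19.1 (0.123) and Tk2 (0.0719). Counts of calls moved more. For Patl2-/- maturation, a further quantile normalization gave 6159 rises (1394 by at least 2-fold). The methods' ANOVA with adjustment gave 534 rises (155 by at least 2-fold) and 1709 falls (1339), and unadjusted with 2-fold 490 rises and 2898 falls. Falls numbered 2781 (1768 by at least 2-fold) at level 8 or more and 2997 (1521) with single-gene clusters, where fewer clusters were tested. Leaving out 1 array in turn gave 1360 to 2143 rises (308 to 512 by at least 2-fold) and 3381 to 4845 falls (2359 to 2796). For WT maturation the rises were 4689 after quantile normalization, 47 with the compared arrays only, 4 under the adjusted ANOVA, 247 under the unadjusted ANOVA with 2-fold and 632 to 1350 without single arrays. The falls were 2124 with single-gene clusters, 581, 5 and 2180 in those same 3 fits, and 1845 to 3562. The genotype difference gave 12 higher and 5 lower under the adjusted ANOVA, 231 and 146 unadjusted with 2-fold, and 0 to 2 lower without single arrays (2 without WT MII replicate 2). Except where shown by construction, the cause was not tested. List medians stayed negative after quantile normalization for complex I (-1.12), complexes II to V (-1.0), cytosolic (-1.30) and mitochondrial (-0.60) ribosomal proteins and proteasome (-0.31), but turned positive for 14 of the 20 lists with a negative median, to 0.01 to 0.35. Replicate numbers did not pair samples (correlation of deviations -0.02, 0.057 and -0.03 in Patl2-/-). The fit with a replicate block gave 1971 rises and 4239 falls, 5668 of them shared with the fit without it.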
